A study of Mus musculus with 6 samples.

Results

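The Hox cluster genes encode homeodomain transcription factors that sit in 4 chromosomal clusters, Hoxa, Hoxb, Hoxc and Hoxd. They were chosen by name, as rows of the authors' deposited comparison table whose symbol is Hox, a cluster letter and a number. Of the 17110 genes in the table, 7 chosen this way are described here, namely Hoxa7, Hoxb9, Hoxb13, Hoxc13, Hoxd8, Hoxd9 and Hoxd13. Another 31 Hox names of the reference had no row in the comparison table and no row in the deposited counts table either, so they were not analysed here.

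The study sorted mouse embryonic stem cells by a reporter under the control of MERVL. This endogenous retrovirus is switched on in the two-cell embryo and in rare cultured stem cells. The DsRed2-positive and the DsRed2-negative group each had 3 samples, taken as biological replicates on different dates. All 6 samples came from the line labelled TG2A with the genotype MERVL::Fluorescent protein, grown in serum with leukemia inhibitory factor, and no other treatment is labelled. Polyadenylated RNA was sequenced in bulk, so a smaller number of expressing cells and less RNA per cell cannot be told apart.

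Hox genes give cells their position along the head-to-tail axis. Within a cluster their order on the chromosome follows the order of their expression domains, from paralog group 1 at the anterior end to group 13 at the posterior end. In embryonic stem cells the clusters are classic targets of Polycomb repression, and retinoic acid and Cdx factors are known to open them during differentiation. Hox proteins bind DNA together with TALE homeodomain cofactors of the Pbx, Meis and Pknox families.

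The values below are log2 fold changes, standard errors (after ±) and adjusted p-values as the authors deposited them, with 1 value per gene and none per sample. The table names neither its groups nor which of them is the numerator. It was read as the comparison of the sorted groups because the labels list no others. A negative value is therefore lower in one sorted group, and which one is not stated. A gene is called at an adjusted p-value under 0.05.

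Of the 7 Hox genes described, 6 were negative and 1 was positive in the authors' deposited table, and 2 were called, both negative. Called or not, 49.0% of all genes were negative, and 53.2% of genes in the range of mean counts of these Hox genes. The called genes were Hoxd8 and Hoxd9. They are 28.6% of the 7, against 30.5% of all genes called in either direction, 15.9% negative and 14.6% positive. Among the 2909 genes with mean counts in the same range as these Hox genes, 22.6% were called, 12.3% negative and 10.3% positive. At the shares of all genes and of that range, 7 genes would hold 2.13 and 1.58 called genes, and 1.11 and 0.86 called negative. The count of 2 is thus within 1 gene of the background in either direction, and within 2 of that for negative calls. The median log2 fold change of the 7 was -1.13 in the authors' deposited table, against 0.0097 over all genes and -0.062 over genes in the same range of mean counts.

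**Figure D1:**
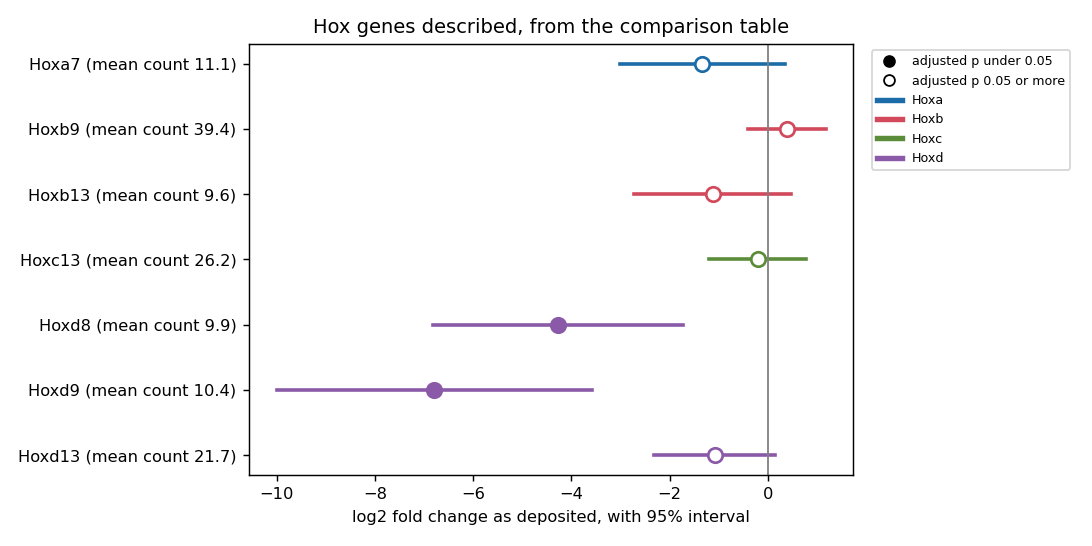
Log2 fold change (horizontal axis) of each Hox gene described, from the authors' deposited table. Points are the deposited values, bars are 95% intervals from the deposited standard errors, colours are clusters and filled points have an adjusted p-value under 0.05. The intervals of Hoxd8 and Hoxd9 lie below 0, and those of the other 5 genes reach across it.

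Hoxd9 and Hoxd8 are adjacent genes in the middle of the Hoxd cluster, with roles in vertebral and limb patterning. Hoxd9 had a mean count of 10.4 and a log2 fold change of -6.79 ± 1.64 (adjusted p-value 0.000236 in the authors' deposited table). For Hoxd8 the mean count was 9.91 and the log2 fold change -4.28 ± 1.30 (adjusted p-value 0.00479 in the authors' deposited table). If each fold is read as a ratio of the means of equal groups, the mean count of Hoxd9 splits into 20.7 in one group and 0.19 in the other, and that of Hoxd8 into 18.8 and 0.97. The lower group thus lies near 0 counts for both, so their fitted folds are no measure of the size of the difference. Whether 1 library carries the counts of either gene was not tested, since no value per library was used.

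The 200 bases that lie from 250 to 51 bases before the RefSeq start of 3 Hoxd genes are shown because Hoxd8 and Hoxd9, the called neighbours, can be set beside Hoxd13, the gene of the same cluster that was not called. They are on the plus strand of GRCm38.p6, at chr2:74704365-74704564, chr2:74697513-74697712 and chr2:74667975-74668174. No transcript of GENCODE M21 on the same strand overlaps these windows. On the opposite strand, an exon of Gm28793 covers 74 bases of the Hoxd9 window, and Hoxd3os1 spans the Hoxd8 window without an exon there. Capitals mark the 1 match to AGGTCA, a nuclear receptor half-site.
Hoxd8: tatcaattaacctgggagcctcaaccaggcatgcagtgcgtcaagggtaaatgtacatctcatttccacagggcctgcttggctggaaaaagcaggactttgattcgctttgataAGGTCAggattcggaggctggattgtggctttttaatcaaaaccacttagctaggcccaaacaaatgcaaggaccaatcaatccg
Hoxd9: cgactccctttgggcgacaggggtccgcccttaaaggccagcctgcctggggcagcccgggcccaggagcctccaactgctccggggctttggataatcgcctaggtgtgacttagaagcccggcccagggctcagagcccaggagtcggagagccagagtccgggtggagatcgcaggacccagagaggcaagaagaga
Hoxd13: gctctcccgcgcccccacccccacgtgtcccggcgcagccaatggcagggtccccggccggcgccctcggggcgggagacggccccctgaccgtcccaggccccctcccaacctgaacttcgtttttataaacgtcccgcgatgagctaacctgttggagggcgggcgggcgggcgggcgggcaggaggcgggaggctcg

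The Hoxd13 window is the richest in CpG of those printed. It had a GC content of 74% and 23 CpG dinucleotides, a ratio of observed to expected CpG of 0.84. The windows of Hoxd8 and Hoxd9 had GC contents of 46.5% and 65.5%, 4 and 10 CpG dinucleotides, and ratios of 0.37 and 0.47. Over 32841 windows of the same length in the RefSeq table, the median ratio was 0.36, with quartiles of 0.16 and 0.69. Their median GC content was 51.5% (quartiles 44.5% and 60%) and their median CpG count 4 (quartiles 2 and 11). Among the 7 Hox genes, 4 had an entry in the RefSeq table, and the last was Hoxa7. AGGTCA, on either strand, was present in Hoxd8 alone of these 4 windows and in 11.4% of all windows. TTTATG, a core of Cdx sites, was present in Hoxa7 alone, with 2 matches, and in 8.78% of all windows. The Hoxa7 window, not printed, lies within GENCODE M21 transcripts of Hoxa7 itself, which cover all 200 bases. An exon of Hoxa7 covers 78 of them. TGATTNAT, a joint site of Pbx and Hox proteins, was in 0 of the 4 and in 2.34% of all windows. These motifs do not overlap one another in the windows, and a match is a string of letters, not a measured binding site.

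The other 5 Hox genes were not called. Hoxd13, needed for digits and external genitalia, had a log2 fold change of -1.09 ± 0.63 (adjusted p-value 0.191 in the authors' deposited table). Hoxa7, a patterning gene of the trunk, stood at -1.33 ± 0.86 (adjusted p-value 0.251 in the authors' deposited table). Hoxb13, expressed at the tail end and in the prostate, stood at -1.13 ± 0.81 (adjusted p-value 0.319 in the authors' deposited table). The 95% intervals of these 3 genes reach up to 0.14, 0.34 and 0.47.

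Hoxc13 and Hoxb9 lay closer to 0. Hoxc13, a regulator of hair and nail keratins, had a log2 fold change of -0.21 ± 0.50 (adjusted p-value 0.806 in the authors' deposited table). The single positive member was Hoxb9, which patterns the rib cage, at 0.38 ± 0.41 (adjusted p-value 0.534 in the authors' deposited table). Its 95% interval runs from -0.41 to 1.18.

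Precision sets what could be called. The largest p-value called in the authors' deposited table was 0.0152. At that p-value a gene with the standard error of Hoxb9 is called from a log2 change of 0.99 in size, one like Hoxc13 from 1.22 and one like Hoxd13 from 1.52. For Hoxb13 and Hoxa7 these sizes are 1.98 and 2.08.

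**Figure D2:**
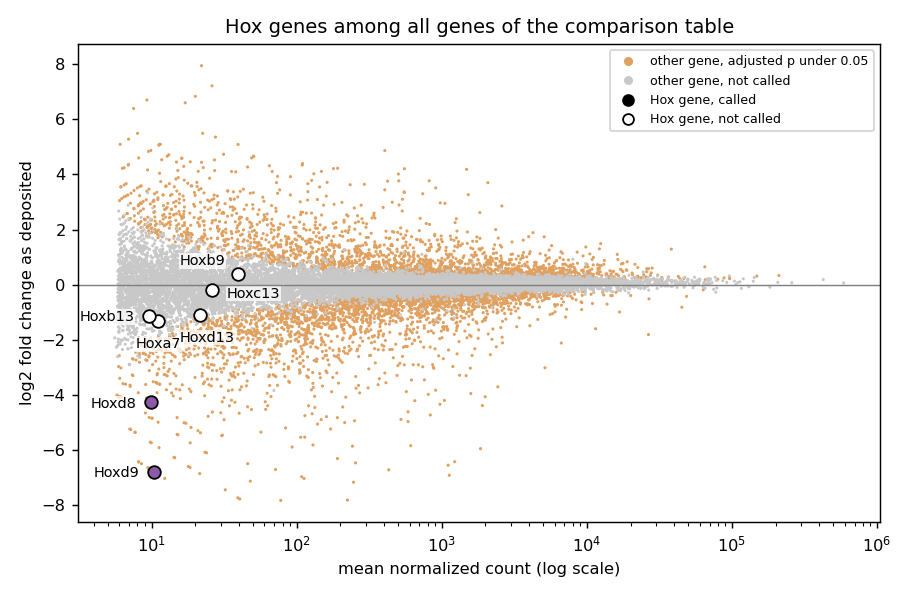
Log2 fold change (vertical axis) against mean normalized count on a log scale (horizontal axis) for the 17110 genes of the authors' deposited table. Orange points are called genes, grey points are not, and the 7 Hox genes described are labelled. They sit at the low-count side, between 9.59 and 39.4.

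The 7 Hox genes described were scarce. Their mean normalized counts ran from 9.59 for Hoxb13 to 39.4 for Hoxb9, with a median of 11.1, against a median of 394.2 for the whole of the authors' deposited table. Of all genes, 23.5% had a mean count no higher than that of Hoxb9 and 6.54% no higher than that of Hoxb13. Per kilobase of the longest GENCODE M21 transcript, the mean count was 15.3 for Hoxb9, 10.7 for Hoxc13 and 8.73 for Hoxd13. It lay between 3.76 and 5.46 for Hoxa7, Hoxd9, Hoxb13 and Hoxd8. These levels are means over all libraries, and their spread over samples was not used.

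By cluster, the genes described divide unevenly. Hoxd had 3 of its 9 genes in the table, all negative, of which 2 were called. Of Hoxa, Hoxa7 is described, negative and not called. Hoxb had rows for 2 of 10 genes, 1 of each sign, with 0 called in the authors' deposited table and 0 at an unadjusted p-value under 0.05. Hoxc had 1 of 9, with 0 called and 0 at an unadjusted p-value under 0.05. In the authors' deposited table the median was -4.28 for Hoxd, -0.37 for Hoxb, and the single values were -1.33 for Hoxa7 and -0.21 for Hoxc13. Over all genes 30.5% were called and 15.9% were called negative. Among genes in the range of mean counts of these Hox genes, the shares were 22.6% and 12.3%, and 53.2% were negative, called or not. The values by cluster rest on 1 to 3 genes, and a difference between clusters was not tested.

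Paralog groups were compared as central (5 to 8) and posterior (9 to 13), and no value is given for the anterior groups 1 to 4. The central class held 2 of 11, Hoxa7 and Hoxd8, of which Hoxd8 was called negative. The posterior class held 5 of 16, and Hoxd9 was its 1 called gene, also negative. Each of these classes thus had 1 called gene, and in the authors' deposited table the class medians stood at -2.81 and -1.09. Such counts stand beside 30.5% called and 15.9% called negative over all genes, and a difference between classes was not tested. With posterior as groups 10 to 13, Hoxd9 counts as central, and the posterior class has 0 called genes and 0 at an unadjusted p-value under 0.05. Paralog group 13 was the fullest, with 3 of its 4 genes in the table, and 0 of them were called.

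Genes next to the clusters were read from a list of neighbours, in the order of GENCODE M21. The counts below stand beside 15.9% called negative and 14.6% called positive over all genes. Beside Hoxa, 0 of 8 neighbours were called positive and 2 negative, and the list median was 0.034 in the authors' deposited table, or -0.059 after centring on ribosomal protein genes. The called pair was Evx1, a homeobox gene at the posterior end that is active in the posterior embryo, at -3.28 ± 0.83, and Jazf1 at -2.09 ± 0.53 (adjusted p-values 0.000539 and 0.000479 in the authors' deposited table). Evx1os, the antisense gene of Evx1, stood at -3.64 ± 1.12 in the authors' deposited table. It was named after its value was seen, and reads of an antisense pair cannot be divided without strand.

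On the anterior side of the Hoxa cluster, the called sign was opposite to that of Evx1 and Jazf1. Halr1, a long non-coding RNA, had a mean count of 1603 and a log2 fold change of 0.87 ± 0.16 (adjusted p-value 4.36e-07 in the authors' deposited table). Of 21 listed RNAs of the Hox clusters, Halr1 was the 1 with a row.

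Beside Hoxb, 5 of 11 neighbours with a row were called positive, against 14.6% of all genes, and 0 negative (median 0.41 in the authors' deposited table). Next to Hoxb13 lay Ttll6, a tubulin-modifying enzyme, at 1.19 ± 0.31, and then Calcoco2, an autophagy receptor, at 3.10 ± 0.14 (adjusted p-values 0.000663 and 3.28e-107 in the authors' deposited table). Hoxb13 stood at -1.13 and Hoxb9 at 0.38 in the authors' deposited table, both uncalled, and the called values of their listed neighbours were all positive. Gm53, a gene between Hoxb9 and Hoxb13, was also positive, at 0.79 ± 0.32 (adjusted p-value 0.0477 in the authors' deposited table). It was named after its value was seen.

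Fewer of the listed neighbours of Hoxc and Hoxd were called than the 30.5% of all genes. Beside Hoxc, 1 of 11 was called, Calcoco1 at 0.28 ± 0.11 (adjusted p-value 0.0337 in the authors' deposited table). Beside Hoxd, 0 of 7 were called and 2 had an unadjusted p-value under 0.05, Chn1 at 0.28 and Lnpk at -0.25 in the authors' deposited table. The list medians were 0.17 for Hoxc and 0.051 for Hoxd, the latter turning to -0.042 after centring on ribosomal protein genes. With that centring, 1 listed gene beside Hoxc and 1 beside Hoxd were called negative and 0 positive.

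The 8 nearest genes with a row on each side hold more calls than the lists beside Hoxa, Hoxc and Hoxd. On the anterior side of Hoxa, 2 of 8 were called positive and 0 negative, Halr1 and Gm8038. Gm8038 stood at 2.90 in the authors' deposited table, with a mean count of 8.19. On the posterior side of Hoxa, 3 of 8 were called negative and 0 positive, namely Evx1os, Evx1 and Jazf1. Around Hoxc, 2 of 8 on each side were called positive and 0 negative, and Gtsf1 had the highest value there, 3.08 in the authors' deposited table. On the anterior side of Hoxd, 2 of 8 were called positive, Ttc30a1 at 0.67 and Rps6-ps4 at 0.26 in the authors' deposited table. On its posterior side 1 of 8 was called, Wipf1 at -0.46 in the authors' deposited table. These genes outside the lists were named after their values were seen.

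**Figure D3:**
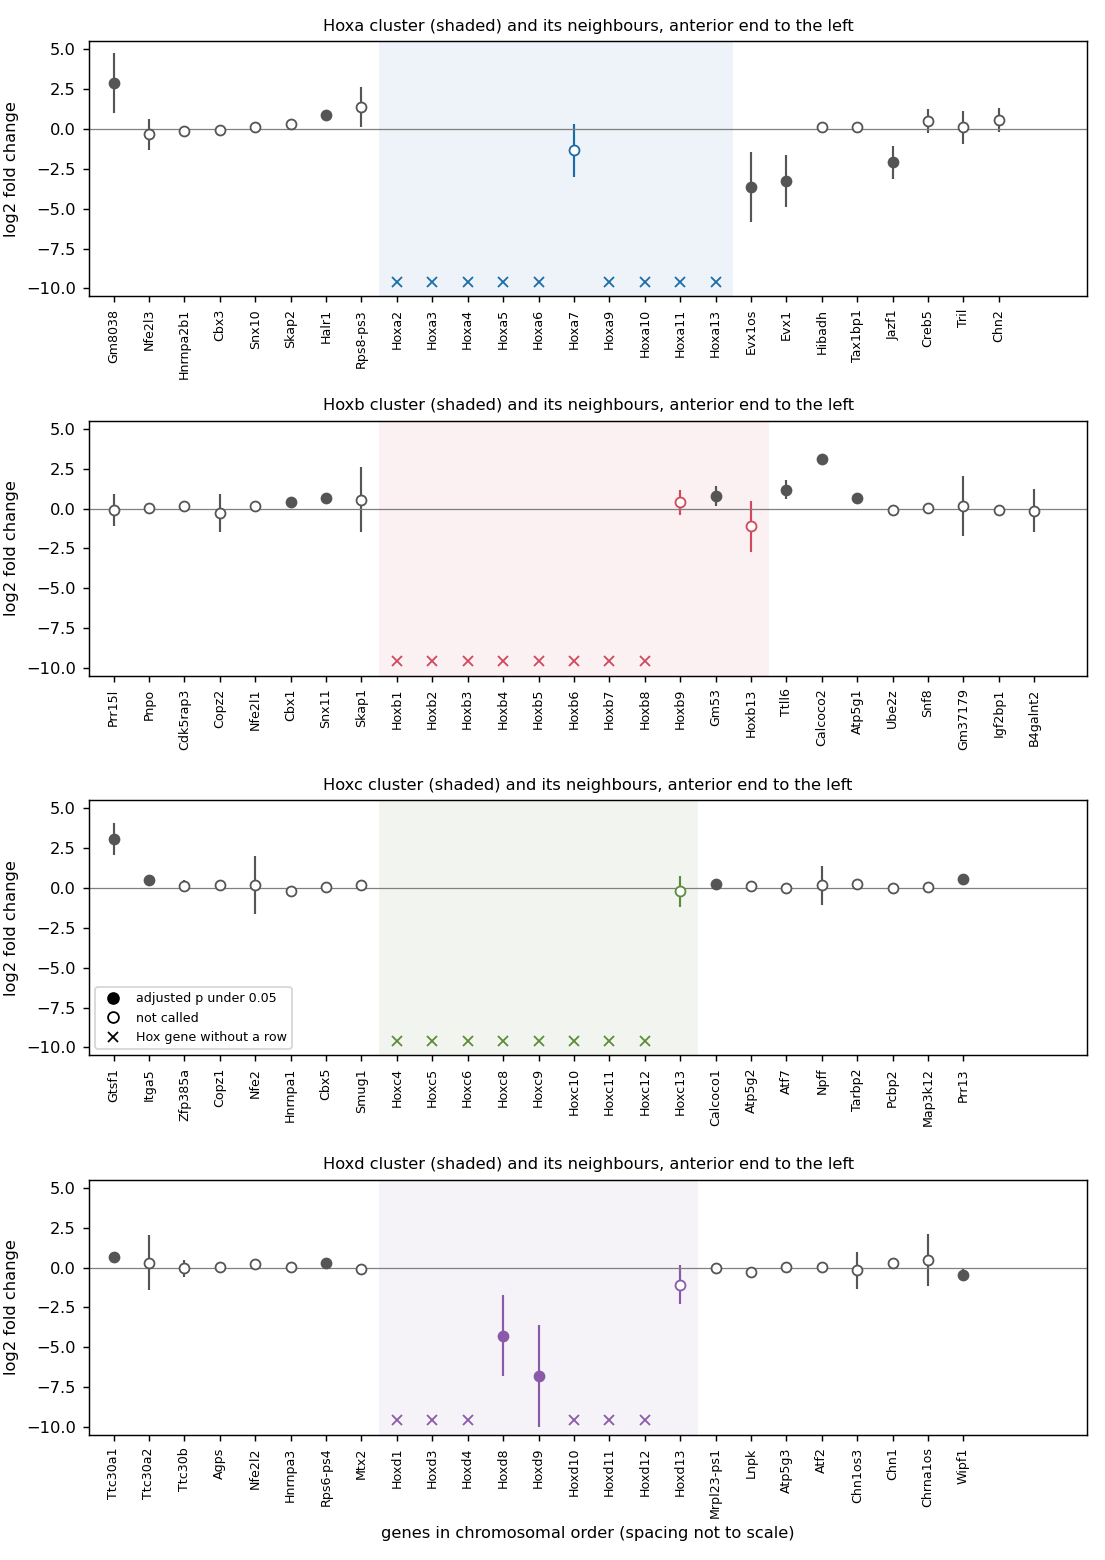
Log2 fold changes (vertical axis) of the genes of each Hox cluster (shaded) and of the 8 nearest genes with a row on each side, in the order of their 3′ ends in GENCODE M21. Bars are 95% intervals, filled points have an adjusted p-value under 0.05, and crosses at the foot of a panel are Hox genes without a row. Calcoco2 beside Hoxb is at 3.10, Evx1 beside Hoxa at -3.28, and the lowest point of the Hoxd panel is Hoxd9 at -6.79.

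Among the partners of Hox proteins, 8 TALE cofactors are described, of which 3 were called negative and 1 positive (median -0.67 in the authors' deposited table). Over all genes 15.9% were called negative and 14.6% positive, and the counts of the lists that follow are to be read against these shares. Pbx3 stood at -1.25 ± 0.13 and Meis2 at -1.80 ± 0.46 (adjusted p-values 4.78e-19 and 0.000592 in the authors' deposited table). The positive gene was Pknox2, at 1.13 ± 0.37 in the authors' deposited table. The third negative call was Meis3, at -1.03 in the authors' deposited table.

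Of 14 listed Cdx and growth-zone factors, 10 had a row, and 5 were called negative and 0 positive (median -1.90 in the authors' deposited table). The gene T, a mesoderm factor of the primitive streak, stood at -6.56 ± 0.79, and Cyp26a1, an enzyme that degrades retinoic acid, at -4.53 ± 0.68 in the authors' deposited table. Among direct activators of Hox genes, Cdx2 was called at -5.82 ± 0.96 (adjusted p-value 2.11e-08 in the authors' deposited table). Cdx1 and Cdx4 were not called, at 0.33 and 0.31 with standard errors of 0.54 and 1.01 in the authors' deposited table.

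Retinoic acid genes split. Of 13 with a row, 6 were called negative and 2 positive (median -0.54 in the authors' deposited table). The receptors Rara and Rarg were positive, at 0.49 and 0.64, and the partners Rxrg and Rxra negative, at -2.50 and -0.54 in the authors' deposited table. Of the same families, Rarb and Rxrb were not called, at -0.78 ± 0.85 and 0.071 ± 0.092 in the authors' deposited table. Cyp26a1, itself a target of the pathway, belongs to this list and the previous one. Evx1, T, Cdx2, Eomes and Hand1, all called negative, also recur across the lists described, so the counts of the lists overlap.

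Chromatin regulators of the clusters were measured at higher counts, with most values within 1 of 0. All 12 genes of Polycomb repressive complex 2 had a row, of which 4 were called positive and 0 negative (median 0.26 in the authors' deposited table). The share called, 4 of 12, is near the 30.5% of all genes called in either direction. All 4 were positive, however, and 14.6% of all genes were called positive. After centring on ribosomal protein genes 4 were called positive and 2 negative. Mtf2 and Epop, accessory subunits, stood at 0.73 and 0.92 with standard errors of 0.088 and 0.17 in the authors' deposited table. Eed, a core subunit, was also called, at 0.57 in the authors' deposited table. The catalytic subunit Ezh2 was not called at 0.077 in the authors' deposited table. Nor were the accessory subunits Phf19, Aebp2 and Phf1, at -0.39, 0.17 and 0.26 in the authors' deposited table. For Polycomb repressive complex 1 and its partners, 5 of 18 were called negative and 2 positive (median -0.090 in the authors' deposited table). Their 7 calls of 18 are also near the share over all genes in either direction, and the 5 negative calls stand beside 15.9% called negative. The same centring gave 5 negative calls and 0 positive. Its members with the smallest p-values were Yaf2 at -1.73 and Phc2 at -1.11, with standard errors of 0.14 and 0.12 in the authors' deposited table. Of 12 Trithorax group genes and H3K27 demethylases, 6 were called positive and 0 negative (median 0.20 in the authors' deposited table). These 6 positive calls also stand beside 14.6% called positive over all genes. After centring 5 were called positive and 1 negative. The called genes include Ash2l at 0.74 and Wdr5 at 0.51, both core subunits of the H3K4 methyltransferases, in the authors' deposited table.

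The list of other homeobox clusters, 14 genes, had rows for 4, all of them Msx or Dlx genes and all negative. Msx1 and Msx2, targets of bone morphogenetic protein signalling, were called at -4.44 and -2.14 with standard errors of 0.80 and 0.60 in the authors' deposited table. The other two, Dlx4 and Dlx3, were not called, at -1.28 and -1.29 in the authors' deposited table. Homeobox genes of the other lists took both signs, among them Cdx2 at -5.82 and Meox1 at 3.88 in the authors' deposited table.

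**Figure D4:**
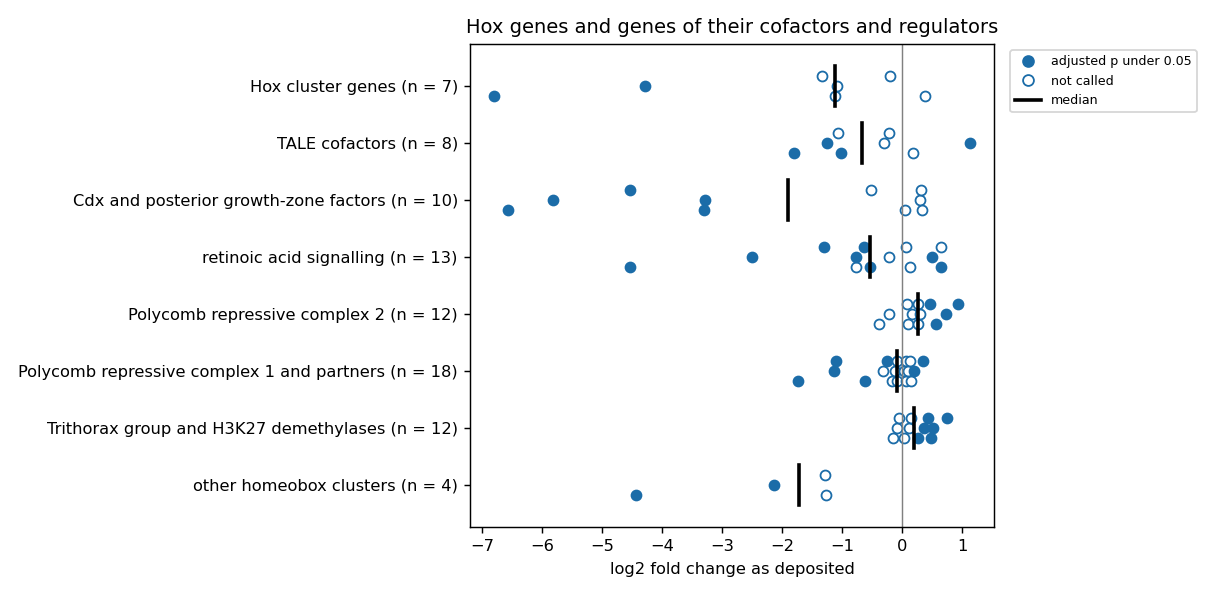
Log2 fold change (horizontal axis) of each gene described from the authors' deposited table, by list. Filled points have an adjusted p-value under 0.05 and the black line is the median of the list, at -1.13 for the Hox genes, -1.90 for Cdx and growth-zone factors and 0.26 for Polycomb repressive complex 2.

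Markers of other cell types are set here beside 15.9% called negative and 14.6% called positive over all genes. Of 13 fibroblast markers with a row among 20, 8 were called negative and 0 positive (median -1.43 in the authors' deposited table). They include Tagln at -5.96, with a mean count of 1849, Twist1 at -2.54, Col1a2 at -4.85 and Col1a1 at -1.67, the last 2 with mean counts of 10.1 and 20.9 in the authors' deposited table. Pdgfra had a mean count of 9.33 and was not called, and 7 fibroblast markers had no row. Among mesoderm markers, 9 of 15 had a row, of which 5 were called negative, T and Eomes (-2.22) among them, and 1, Meox1, positive at 3.88 in the authors' deposited table. Trophectoderm markers were called negative for 8 of 13 with a row and positive for 0 (median -1.82 in the authors' deposited table), with Krt19 at -4.73 and Krt8 at -4.39. Neural progenitor markers were called negative for 4 of 7 and positive for 2, with Nes at -4.07 and Tubb3 at 1.04 in the authors' deposited table. Of 17 pluripotency markers with a row, 12 were called positive and 1 negative, with a median of 0.62, Tbx3 at 2.39 and Zfp42 at 1.10, and their mean counts ran from 428.3 to 38163 in the authors' deposited table. The part of these cell types in the Hox values was not tested, and their summed levels per group were not used.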

How the data were processed

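Bulk RNA-seq of 6 samples was used through the authors' deposited comparison table. The submitters' processing notes list FastQC 0.12.1, Trimmomatic 0.39, STAR 2.7.11b, RSEM 1.3.3, DESeq2 1.45.3 and the build GRCm39, without roles. Per the file headers, the mean normalized count is a signal pooled over libraries, and fold changes and standard errors are in log2 units. The deposited statistic is a score equal to their ratio, within 5.77e-07. The p-value and adjusted p-value, from DESeq2, are as the authors deposited them, over all genes. The model formula, strand setting and annotation release are not given in the sources used here.

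The 6 columns of the deposited counts table match no sample label, so its values were not used, only its 17231 gene IDs. Depth per library and values per replicate are therefore unknown here. The planned edgeR test was not run.

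Intervals of 95% were computed from the deposited standard errors with scipy 1.17.1, and centred alternatives were re-adjusted by Benjamini-Hochberg. The calling procedure was tested on simulated data. No outcome of that test is given here, and nothing is concluded from it about calls of genes as scarce as Hoxd8 and Hoxd9. Every Hox gene described is named, with every neighbour or cluster RNA as needed, and the 2 members of smallest p-value of each other list. Further genes were chosen after their values were seen. The members and lists were chosen with earlier results of these data known. Results for some genes are not reported here. GENCODE M21 (GRCm38) was used for order and length. In it Hoxa7 and Hoxd8 each overlap 1 gene on the opposite strand, so their counts are uncertain if strand was not used. Promoter sequences are from RefSeq, GRCm38.p6.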

Additional observations from a re-analysis of the deposited data

How the results depend on the processing

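The 2 Hox calls in the authors' deposited table held at an adjusted p-value under 0.01, at an absolute log2 fold change over 0.5 or 1, and with the fold changes centred on all genes or on 77 ribosomal protein genes. With a minimum mean count of 50, none of the 7 Hox genes was left to test, so the count of called genes dropped to 0, with 0 in Hoxd, 0 in the central class and 0 in the posterior class. With the narrower posterior class, the central class had 2 called genes and the posterior class 0. The median log2 fold change was -1.14 and -1.22 after centring on all genes and on ribosomal protein genes, and could not be given at a minimum mean count of 50 or 100. With ribosomal protein genes as the centre, the medians of the listed genes beside Hoxa and Hoxd turned to -0.059 and -0.042; list alternatives were chosen after seeing the data. Each Hox gene kept its sign and its side of the threshold under both centrings, which shift every gene by at most 0.093. The limits of 0.5 and 1 on the fold left 2 and 0 of 6 calls among Trithorax genes and 4 and 3 of 7 among Polycomb repressive complex 1 genes, and the limit of 1 left 0 of 4 for Polycomb repressive complex 2, 2 of 5 beside Hoxb, 3 of 8 retinoic acid genes, 3 of 6 neural and 4 of 13 pluripotency markers and 0 of 1 cluster RNA. The call beside Hoxc was lost at an adjusted p-value under 0.01 and at either limit, and retinoic acid genes had 5 calls at 0.01. A minimum mean count of 50 left 0 calls beside Hoxa, 2 TALE cofactors and 3 mesoderm markers, and gave 1 positive call beside Hoxd.

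No paired analysis was possible because no count column was tied to a replicate and the comparison table has 1 value per gene. For the same reason the planned edgeR fit, other size factors without a count filter, the replicate block and leaving out each replicate were not run.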
